A study of Gallus gallus with 8 samples.

Results

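The miR-34 and miR-449 family was examined in small RNA of the frontonasal ectodermal zone, an organizing centre in the facial ectoderm of the chick embryo. Members were the rows of the deposited table named miR-34 or miR-449, with any letter or arm. This gave 11 of the 994 rows, 6 of them miR-34 and 5 miR-449. The rows were chosen by name alone, but the family was selected with the levels of these 8 libraries and earlier results of the same stage comparison known. Its levels are therefore given first as a description, and the stage comparison is no independent support for any pattern.

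Untreated Rhode Island Red embryos were collected at HH18 after 48 h of incubation and at HH22 after 72 h (Hamburger-Hamilton stages), before and after Sonic hedgehog begins to be expressed in this tissue. There were 4 samples per stage, all of them pools of 2 chicks. No allele, transgene or agent was used at either stage. HH18 holds replicates 5 to 8 and HH22 replicates 1 to 4. The labels do not say whether samples of a stage came from separate collections, so the spread between them may be partly technical.

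miR-34 and miR-449 are paralogous families that share a seed, the stretch of a mature miRNA that pairs with its targets. In mammals miR-34a is a direct transcriptional target of p53, and miR-34 represses cell-cycle and survival genes such as cyclins, CDK6 and BCL2. In mouse and frog, miR-449 and miR-34b/c are abundant in multiciliated cells and are needed for their cilia, in part by repressing CP110. Each hairpin can give a 5p and a 3p arm. The 5p arm is the usual functional strand in this family.

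The genes of the family lie at 3 places in the RefSeq genes of GRCg7b, an annotation that served for names and neighbours only. All 11 rows matched one of its genes by name. MIR34A lies inside the long non-coding RNA gene LOC121107378, with H6PD as the next gene. MIR34B and MIR34C lie inside C11orf88, with 0 genes between them. MIR449A, MIR449B and MIR449C lie inside the long non-coding RNA gene LOC124417526, and the gene after MIR449C is MCIDAS, which encodes multicilin, a regulator of the multiciliated cell programme. Mature sequences were not used here.

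The 8 libraries differed in depth. They held 6276121 to 31318393 reads at HH18 and 46912793 to 88471588 reads at HH22, so depth and stage cannot be told apart. A normalized count is the number of reads divided by the library's size factor, recovered from the deposited log2 values. One read was worth 0.80 to 4.18 normalized counts at HH18 and 0.34 to 0.65 at HH22. A floor of 3 reads therefore stood at 12.5 normalized counts in the shallowest library (HH18 replicate 6) and at 1.01 in the deepest (HH22 replicate 1). Intervals and floors cover counting error only.

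The family took a small share of the reads in this ectoderm, 3035 of 310554506 over the 8 libraries, or 9.77 reads per 1000000 (RPM). Such shares depend on the most abundant row, miR-100-5p, with means of 18379009 (HH18) and 21011172 (HH22) normalized counts. The median feature with reads had a mean of 13.2 normalized counts. miR-34a-5p (152), miR-34b-5p (36.5), miR-34c-5p (26.3) and miR-34c-3p (17.1) lay above it. miR-34b-3p (4.94) and miR-449c-5p (1.63) lay below it. Of the 11 rows, 6 held reads in at least 1 library (54.5%), against 651 of all 994 rows (65.5%). Of the 6 miR-34 rows 5 held reads, and of the 5 miR-449 rows 1 did. The rows at 0 reads in every library were miR-34a-3p, miR-449a, miR-449b-5p, miR-449b-3p and miR-449c-3p. With the reads of all libraries pooled and counting error alone, a count of 0 allows a level of up to 0.00966 RPM (3 reads of the total). Libraries of a stage differed by more than counting error, so the actual limit is higher. Only miR-34a-5p had reads in all 8 libraries.

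miR-34a-5p, the usual functional arm of a hairpin whose gene is a p53 target in mammals, was the most abundant member. It supplied 1880 of the family's reads (61.9%) and ranked 152 by mean normalized count among the 651 features with reads. The HH18 libraries held 48.5, 58.5, 104 and 274 normalized counts (replicates 5 to 8). The HH22 libraries held 224, 150.0, 205.2 and 151 (replicates 1 to 4). HH18 replicate 8 was the highest of all 8 libraries and the other HH18 libraries lay below every HH22 library, so the stages overlapped through 1 library. The passenger arm of the same hairpin, miR-34a-3p, had 0 reads in all of them.

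The mean level of miR-34a-5p was 121 ± 104.5 normalized counts in the HH18 libraries and 183 ± 37.7 in those of HH22 (SD, n = 4). In RPM they were 4.07 ± 2.99 and 6.17 ± 1.52 (SD, n = 4). The coefficient of variation, the SD as a share of the mean, was 86.3% at HH18 and 20.7% at HH22. Among the 77 tested features whose mean lay within 2-fold of this miRNA, the median was 65.2% at HH18 and 31.7% at HH22. The wider spread at HH18 was thus also present in miRNAs of similar level. Fewer cells of a type and less RNA per cell cannot be told apart in such samples.

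miR-34b-5p, the usual functional arm of its hairpin, was next at HH18. Its HH18 libraries held 43.9, 0, 67.9 and 24.2 normalized counts (replicates 5 to 8). Its HH22 libraries held 55.7, 5.65, 61.4 and 33.3 (replicates 1 to 4). The stages overlapped almost completely, with means of 33.99 ± 28.9 and 39.0 ± 25.3 (SD, n = 4). The 0 in HH18 replicate 6 stands against a floor of 12.5 normalized counts in that shallow library, whereas the 5.65 in HH22 replicate 2 came from 9 reads among 46912793.

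miR-34c-5p, the usual functional arm of its hairpin, varied widely among the HH22 libraries. It had 0 reads in HH18 replicates 5 and 6 and 18.4 and 24.2 normalized counts in HH18 replicates 7 and 8. At HH22 it stood at 47.3, 95.4, 9.09 and 15.7 (replicates 1 to 4). HH22 replicates 1 and 2 lay above every HH18 library, and replicates 3 and 4 lay below both HH18 libraries that held reads. The mean was 10.6 ± 12.5 before and 41.9 ± 39.4 after the onset (SD, n = 4).

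miR-34c-3p, the other arm of that hairpin, was the one member whose stages did not overlap. Among all 356 tested features the stages did not overlap in 20.2%, and in 11.5% with HH22 higher. At HH18 it had 15 reads in replicate 7 (11.99 normalized counts) and 0 reads in the other 3 libraries. At HH22 it had 18.1, 40.2, 33.5 and 32.6 normalized counts (replicates 1 to 4). Every HH22 value lay above the highest HH18 value and above the 3-read floors of the HH18 libraries at 0 reads, which were 6.93, 12.5 and 3.82 (replicates 5, 6 and 8). The means were 3.00 ± 5.99 and 31.1 ± 9.30 (SD, n = 4). In 1 random draw of reads to the depth of the shallowest library, the row held 1 read in HH18 replicate 7 and 1 in HH22 replicate 1. In that draw the stages no longer separated, but counts this low vary between draws. Scaled to that depth without a draw, the row stood at 3.01 reads in HH18 replicate 7. At HH22 it then stood at 3.83, 8.56, 7.60 and 6.27 (replicates 1 to 4). This scaling multiplies RPM by the same factor in every library. It therefore keeps the order of the libraries in RPM and is no check on depth.

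miR-34b-3p had reads in 1 library and miR-449c-5p in 2. miR-34b-3p had 63 reads in HH22 replicate 2 (39.6 normalized counts) and 0 in the other 7 libraries. miR-1845, a row outside the family, had the same reads, and whether the pair shares them was not tested. At the same rate HH22 replicate 1 would have held 118.8 reads. miR-449c-5p, the usual functional arm of its hairpin, had 9 reads in HH18 replicate 7 (7.19 normalized counts) and 9 in HH22 replicate 4 (5.87). These 18 reads were all the reads of miR-449 in the series.

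**Figure D1:**
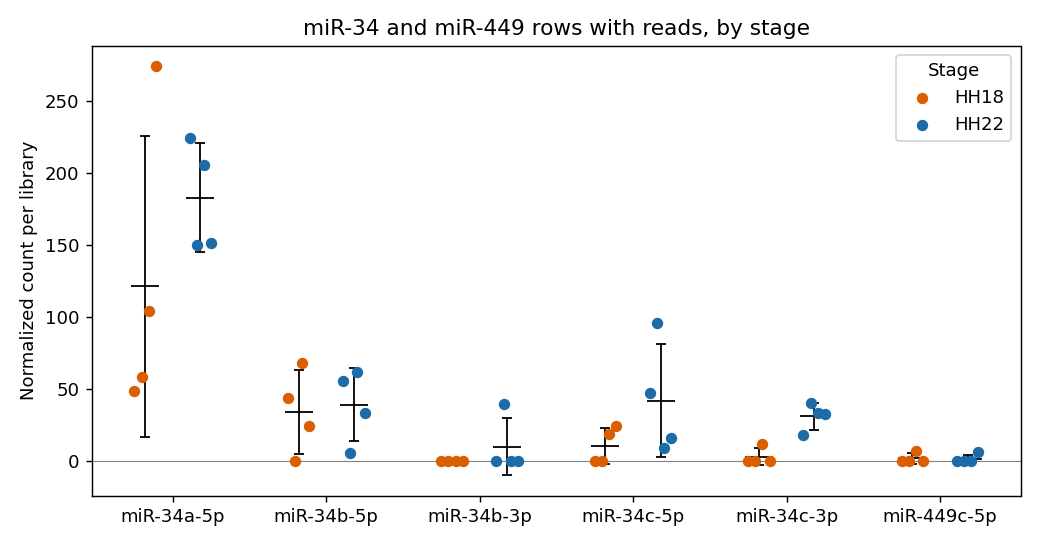
Normalized counts per library (y axis) of the 6 family rows with reads (x axis), with HH18 in orange and HH22 in blue. Each point is 1 library and the bars are the mean ± SD of 4 libraries; miR-34a-5p spans 48.5 to 274 at HH18, and miR-34c-3p is the row whose stages do not overlap.

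The order of the members was similar at both stages at its top. miR-34a-5p exceeded every other member in each of the 8 libraries, though by 21 reads to 19 of miR-34b-5p in HH18 replicate 5. At HH22 its lowest library (150.0 normalized counts) lay above the highest value of any other member (95.4, miR-34c-5p in replicate 2). Below it at HH22 came miR-34c-5p (41.9 ± 39.4), miR-34b-5p (39.0 ± 25.3) and miR-34c-3p (31.1 ± 9.30), which did not differ beyond their spread (SD, n = 4). At HH18 the order was miR-34b-5p (33.99 ± 28.9), miR-34c-5p (10.6 ± 12.5), miR-34c-3p (3.00 ± 5.99) and miR-449c-5p (1.798 ± 3.60), and each overlapped its neighbour (SD, n = 4). Levels of different miRNAs also carry differences in how well each is captured in a small RNA library, which were not measured.

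The summed family made up 3.14, 2.23, 8.37 and 9.72 RPM in the HH18 libraries (replicates 5 to 8). It made up 11.6, 11.2, 11.2 and 7.31 in the HH22 libraries (replicates 1 to 4). The HH18 libraries with the lowest sums, replicates 5 and 6, were also the shallowest. They and HH22 replicate 4 also had the highest sums of the blood and endothelial marker list given below. HH18 replicates 7 and 8 lay above HH22 replicate 4, so the stages overlapped. miR-34a-5p took 45.4% (HH22 replicate 2) to 66.4% (HH22 replicate 3) of the family reads at HH22. The 527 family reads of HH22 replicate 2 include the 63 of miR-34b-3p, equal to those of miR-1845, so its sum and share depend on them. At HH18 it took 52.5%, 49.6% and 85.0% in replicates 5, 7 and 8 and all 14 reads in replicate 6, where the exact 95% interval began at 76.8%.

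**Figure D2:**
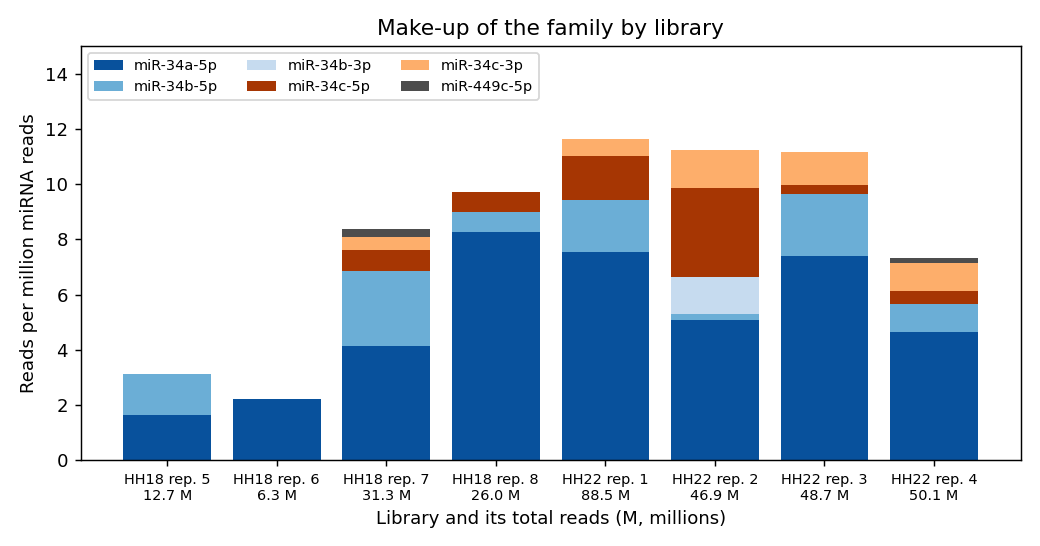
RPM, reads per 1000000 miRNA reads (y axis, stacked by family row) in each of the 8 libraries (x axis, with the total reads of the library). HH18 replicates 5 and 6 have the lowest sums, 3.14 and 2.23 RPM, and miR-34a-5p is the largest piece in every library.

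The balance of the 2 arms of miR-34c, measured within a library and so independent of scaling, differed among the HH22 libraries. The 5p arm took 72.3% of the hairpin's reads in HH22 replicate 1 (195 reads of both arms) and 70.4% in replicate 2 (216 reads). It took 21.3% in HH22 replicate 3 (75 reads) and 32.4% in replicate 4 (74 reads). The exact 95% intervals of the first pair reached down to 63.8% and those of the second pair up to 44.3%, so these libraries of a single stage differed beyond counting error. Levels over the rows of the whole table also differed beyond counting error in every pair of libraries of a stage (lowest chi-square 187 per degree of freedom). That value is summed over rows, can be set by the most abundant ones, and does not measure arm balance. Arm shares of hairpins outside the family were not measured. At HH18 replicate 7 had 60.5% (23 against 15; interval 43.4% to 76.0%), replicate 8 had 19 reads of the 5p arm against 0, and replicates 5 and 6 had no reads of either.

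For the miR-34b hairpin 1 library stood apart. In 6 libraries all of its reads came from the 5p arm, with 19 to 166 reads. In HH22 replicate 2 the 5p arm took 12.5% (9 reads against 63, exact interval 5.88% to 22.4%). miR-1845 also had 63 reads there, and whether they are shared with miR-34b-3p was not tested. The same library had the most reads of both miR-34c arms. No pair of members had reads in all 8 libraries, so no ratio of arms or of paralogs could be compared between the stages.

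**Figure D3:**
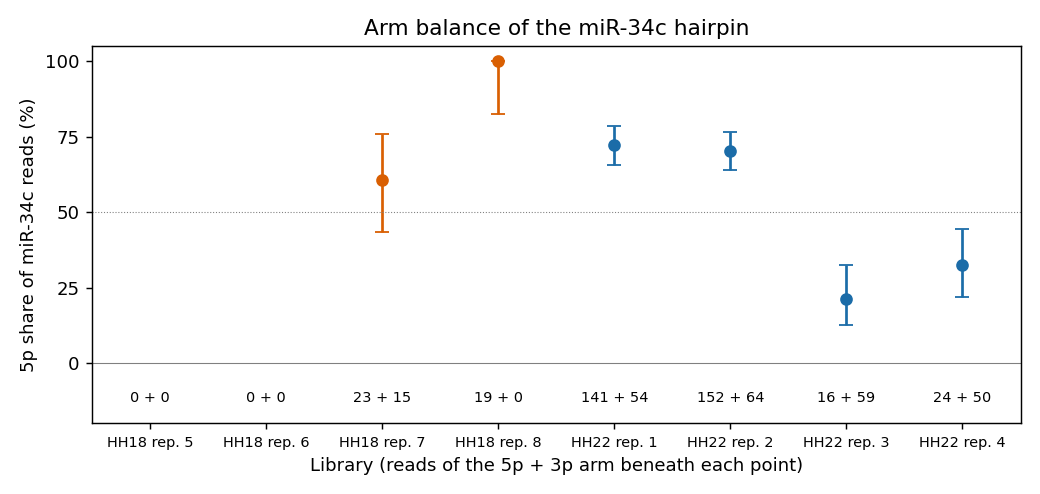
Share of miR-34c reads on the 5p arm (y axis, %) in each library (x axis), with exact 95% binomial intervals and the reads of each arm printed beneath; libraries with 0 reads have no point. HH22 replicates 1 and 2 lie above 63.8% and HH22 replicates 3 and 4 below 44.3%, intervals included.

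The stages were compared in 1 fit over the whole table (limma-trend on log2(normalized count + 1), HH22 over HH18, two-sided, Benjamini-Hochberg adjustment over all tested features). A feature was tested where 4 or more libraries reached a normalized count of 1, which 356 features met. Of these, 52 passed an adjusted p of 0.05 (14.6%), with 35 higher (9.83%) and 17 lower (4.78%). Of the 11 members 4 were tested, namely miR-34a-5p, miR-34b-5p, miR-34c-5p and miR-34c-3p, and of these 1 rose, miR-34c-3p.

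The log2 fold change of miR-34c-3p was 4.03 (SE 1.17, 95% interval 1.44 to 6.62, limma adjusted p = 0.0449). With HH18 libraries at 0 reads this size depends on the pseudocount, and it was 2.37 with a pseudocount of 5 (limma adjusted p = 0.0385). It met the filter through the 4 HH22 libraries and 1 HH18 library. A feature that enters in this way is chosen in part for being higher at HH22: of the 43 tested features with reads in at most 1 HH18 library, 11 passed as higher (25.6%) and 0 as lower. The call was lost without any 1 of 7 libraries (limma adjusted p = 0.0744 to 0.105) and held without HH18 replicate 7 (0.00779). It was also lost without the 2 shallowest libraries (log2 fold change 3.10, limma adjusted p = 0.144), with library size scaling (0.0587) and with no filter (0.174).

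The 5p arms did not pass. For miR-34c-5p the log2 fold change was 2.66 (SE 1.49, 95% interval -0.62 to 5.94, limma adjusted p = 0.301). miR-34a-5p had 0.91 (SE 0.62, interval -0.45 to 2.28, limma adjusted p = 0.39). miR-34b-5p had 0.84 (SE 1.51, interval -2.49 to 4.17, limma adjusted p = 0.753), and it turned to -0.51 without HH18 replicate 6. Without the 2 shallowest libraries, HH18 replicates 5 and 6, miR-34a-5p had 0.09 and miR-34c-5p 0.43. The median log2 fold change of all tested features was 0.38. The intervals hold both no change and changes of 4-fold (2 on the log2 scale) for each of these arms, so they do not show equal levels.

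**Figure D4:**
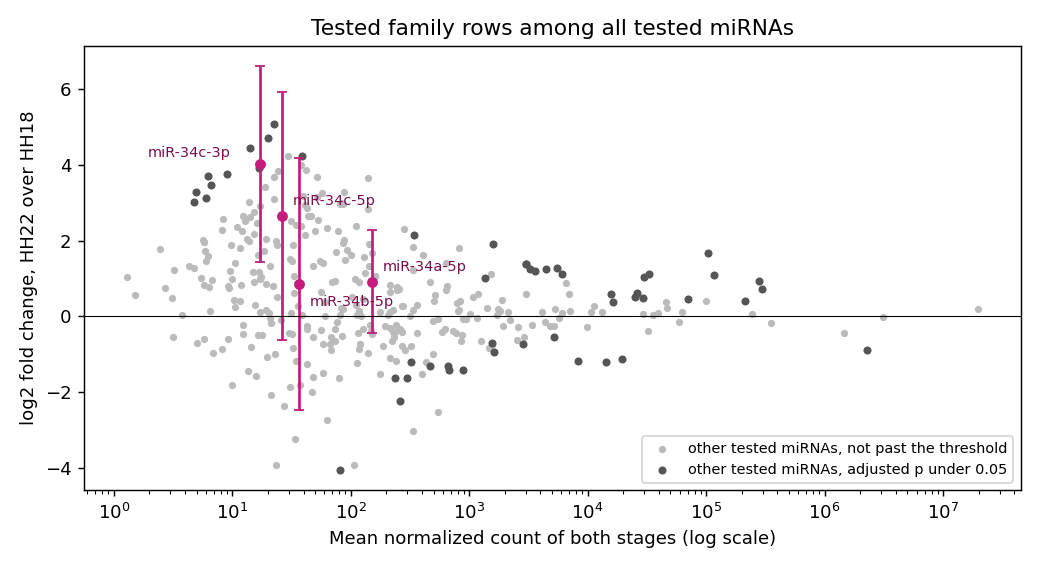
log2 fold change of HH22 over HH18 (y axis) against the mean normalized count of both stages (x axis, log scale) for the 356 tested miRNAs. The 4 tested family rows are in magenta with their limma 95% intervals; 1 of them, miR-34c-3p at 4.03, has an adjusted p under 0.05.

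A list of other miRNAs linked to p53 held calls near the share over all features. It was set from miRNAs that in mammals are induced by p53 or processed more when it is active. The tested rows were of miR-107, miR-15a, miR-16, miR-194 and miR-215, where miR-16c-5p entered by its number alone. The list held other miRNAs too, none of which had a tested row. Of its 11 rows 7 were tested, with 1 higher and 0 lower, where 9.83% of all tested features were higher and 4.78% lower, and a median log2 fold change of 0.79 against 0.38 for all tested features. The member that rose was miR-107-5p, with 1 read in HH18 replicate 8, 0 in the other HH18 libraries and 26.2, 16.3, 48.3 and 21.5 normalized counts at HH22 (replicates 1 to 4; limma adjusted p = 0.00959). Like miR-34c-3p it met the filter through the HH22 libraries and is among the 43 features so chosen. The other arm of its hairpin, miR-107-3p, was far more abundant, and its stages overlapped. It went from 505 ± 272 to 791 ± 99.7 normalized counts (SD, n = 4) and did not pass (limma adjusted p = 0.199). The most abundant rows did not pass: miR-16c-5p went from 5677 ± 1465 normalized counts to 8284 ± 992 (SD, n = 4; limma adjusted p = 0.0807), and miR-16-5p from 5798 ± 1197 to 5555 ± 1057 (SD, n = 4; limma adjusted p = 0.885).

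The 5 tested features whose log2(normalized count + 1) over the 8 libraries was most like that of miR-34a-5p were miR-6648-3p (Pearson r = 0.95), miR-6705-5p (0.92), miR-19a-5p (0.91), miR-3525 (0.89) and miR-6548-5p (0.89). These are descriptions over 8 libraries that share stage and depth. Each of the 5 had 0 or 1 read in HH18 replicates 5 and 6, the shallowest libraries, where miR-34a-5p was also lowest. Like miR-34a-5p, all of them except miR-19a-5p were highest in HH18 replicate 8. How far the r values rest on HH18 replicates 5 and 6 was not tested. None of the 5 passed between the stages (limma adjusted p = 0.236 to 0.648). Within the family, miR-34c-5p, with 0 reads in both of those libraries, was closest to miR-34a-5p (r = 0.80), and miR-34b-5p was not (r = 0.39).

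Marker lists of tissues gave the following levels beside the members. The epithelial list, led by miR-205a and miR-203a, had reads in 9 of 9 rows and summed to 264084 to 375690 normalized counts at HH18 and 454127 to 612969 at HH22. Epithelial miRNAs were thus abundant in the labelled ectoderm. The mesenchyme and cartilage list, led by miR-140-3p and miR-199-3p, had reads in 6 of 6 rows and summed to 25750 to 29651 and 40465 to 44706. The sums of both lists, like miR-34c-3p, did not overlap between the stages, as was the case for 20.2% of all 356 tested features. Such sums can be set by a few abundant rows. Mean normalized counts rose from 73107 to 158680 (miR-205a), 48955 to 157387 (miR-203a) and 24276 to 34206 (miR-140-3p). Row by row, the middle log2 fold change was 0.38 (epithelium) and 0.57 (mesenchyme and cartilage), beside 0.38 for all features. The part of either list in the miR-34c-3p result was not tested. The neural list (15 of 15 rows with reads, led by miR-128-3p and miR-9-5p) summed to 46673 to 68413 at HH18 and 50021 to 59402 at HH22. The blood and endothelial list (8 of 8 rows, led by miR-451 and miR-142-5p) summed to 233 to 14371 and 306 to 2084. Its highest sums were in HH18 replicates 5 and 6 and HH22 replicate 4 (14371, 2041 and 2084). The remaining libraries held 233 to 364. Those with the highest sums were also the libraries with the lowest family sums (3.14, 2.23 and 7.31 RPM). Whether blood content and family level are linked was not tested. The striated muscle list (5 of 14 rows with reads, led by miR-499-5p and miR-1a-3p) summed to 0 to 38.2 and 12.6 to 92.0. Beside 9.83% higher and 4.78% lower over all tested features, the tested rows of these lists were 2 higher and 1 lower of 9 (epithelium), 3 higher of 5 (mesenchyme and cartilage), 1 higher and 1 lower of 12 (neural), 0 of 8 (blood and endothelium) and 1 higher of 3 (striated muscle). The muscle row that rose had 0 reads at HH18 and met the filter through the HH22 libraries only, so it was chosen in part for being higher there.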

How the data were processed

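Per the submitters' processing notes, bcl2fastq, cutadapt 1.8.1 and kallisto 0.44.0 were used; settings, reference and build: not given in the sources used here. The small RNA kit was Illumina TruSeq, per the labels. The deposited values are log2 values, 1 column per sample, with the same lowest value (8.52) in each library. Inverting the closed-form variance-stabilizing transformation gave whole multiples of 1 step per library for 100% of values above 0 (tolerance 0.001), and these steps were the reciprocals of median-of-ratios size factors over 200 features (those with reads in every library). These multiples are called reads, although kallisto estimates counts and can share them between similar miRNAs.

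No 2 libraries of a stage agreed within counting error (lowest chi-square 187 per degree of freedom). limma 3.58.1 (R 4.3.3) tested log2(normalized count + 1). The procedure was also run on simulated counts with the same fixed spread for every feature. That run does not measure how it does on sparse rows of wider spread, such as those of this family. Tables and plots used scipy 1.17.1, matplotlib 3.10.9, pandas 2.3.3 and numpy 2.4.6 under Python 3.11.15. The members and lists were chosen with earlier results of these data known. Named miRNAs were all members, the 5 features most like the most abundant member, and the 2 most abundant tested rows of each list. miR-100-5p, miR-107-5p, miR-107-3p and miR-1845 were named after their values were seen. Alternatives changed the pseudocount, filter, scaling, model, depth and samples.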

Additional observations from a re-analysis of the deposited data

Results flagged for a closer look

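Of 27 groups of 4 libraries with unequal values, 9 had 1 library far from the other 3. Chance gives about 1 in 20 in continuous values, but a group with 3 libraries at 0 is always counted. In 4 of the 9 a member had reads in 1 library of the stage only, so these say no more than that: miR-34b-3p in HH22 replicate 2 (39.6 normalized counts), miR-34c-3p in HH18 replicate 7 (11.99), and miR-449c-5p in HH18 replicate 7 (7.19) and HH22 replicate 4 (5.87). The summed family was lowest of its stage in HH22 replicate 4, at 7.31 RPM (reads per 1000000), and miR-34a-5p took its lowest share of family reads at HH22 in replicate 2, at 45.4%. That share depends on the 63 reads of miR-34b-3p in the same library, equal to those of miR-1845. Among the marker lists, HH18 replicate 5 had the lowest neural sum of its stage (46673 normalized counts) and the highest blood and endothelial sum (14371), and HH22 replicate 4 had the highest blood and endothelial sum of its stage (2084).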

How the results depend on the processing

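miR-34a-5p and miR-34c-5p kept their direction and stayed short of the threshold in all 17 alternatives (log2 fold change 0.09 to 1.42 and 0.27 to 3.47). The 0.09 of miR-34a-5p came without the 2 shallowest libraries, where miR-34c-5p had 0.43, and leaving out single libraries gave 0.59 (without HH18 replicate 5) to 1.42 (without HH18 replicate 8) for miR-34a-5p. On the deposited log2 values, whose scale is compressed at low levels, miR-34a-5p, miR-34c-5p and miR-34c-3p had 0.23, 0.27 and 0.35. miR-34b-5p passed in none of 17 and turned to -0.51 without HH18 replicate 6 and -0.48 without the 2 shallowest libraries, with 0.49 to 1.57 on leaving out any other library. miR-34c-3p was positive in all 16 alternatives that tested it and passed in 5, with 2.37 at a pseudocount of 5. It was lost with no filter (4.03, limma adjusted p = 0.174), with a mean of at least 10 (4.03, 0.0857), with library size scaling (4.25, 0.0587) and without the 2 shallowest libraries (3.10, 0.144). Leaving out single libraries gave 3.72 to 4.95 (limma adjusted p = 0.00779 to 0.105). Thinned to the depth of the shallowest library, miR-34c-3p did not meet the filter. In that 1 random draw it had 1 read in both HH18 replicate 7 and HH22 replicate 1, so its stages did not separate there. Scaling without the 5 most abundant features moved the median of tested features by -0.43, to -0.05, and thinning moved it by -0.24; under the former miR-34c-3p had 3.81 (limma adjusted p = 0.0489). The cause of these losses was not tested.

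Over all tested features 52 passed, 24 with no filter and 29 to 65 on leaving out single libraries, with 29, 33 and 34 without HH22 replicates 1 and 4 and HH18 replicate 8. The split of higher and lower calls was 24 and 47 when scaled without the 5 most abundant features, against 35 and 17. No paired analysis was possible because the sample numbers 1 to 8 are all different. Ratios of arms and of paralogs were not recomputed, since 0 of them had reads in all libraries. Depth limits what the HH18 zeros show: 3 reads are 12.5 normalized counts in replicate 6.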

Other observations

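Members held either 0 reads or at least 9 reads in a library. The family had 29 library values above 0, the smallest of them 9 reads, whereas 14.5% of the 3016 values above 0 in the whole table were under 9 reads. That share covers features of every level, and the 29 values include those of miR-34a-5p, the most abundant member. No such share was taken for features of similar level. Of the 255 features with 50 to 1000 reads in all, as miR-34b-5p, miR-34b-3p, miR-34c-5p and miR-34c-3p had, 13 had reads in 1 library only, 162 in at most 5 libraries and 32 in all 8. Over all levels 21.97% of the 651 features with reads had them in 1 library only, miR-34b-3p among them.

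miR-34b-3p had the same reads in all 8 libraries as miR-1845, a miRNA outside the family. Of the 651 features with reads, 75 had the same reads as another feature in every library, and 17 had reads in HH22 replicate 2 only. Whether the pair shares estimated counts was not tested.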
